A study of Drosophila melanogaster with 16 samples.

Results

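The subject is a set of 10 Drosophila transcription factor genes that pattern the head and the embryonic brain: oc, ems, btd, slp1, slp2, Rx, hbn, scro, Lim1 and tll. A probe set was taken as theirs when the stem of its identifier was the symbol, CG number or older name of 1 of these genes. The 10 genes had 15 probe sets, out of 14038 probe sets and 11310 named genes on the array. Of the 15, 12 lay above an intensity floor of 20 in at least 3 of the 16 arrays and were tested, and every gene had at least 1 of them. A gene with several probe sets (hbn with 3, Lim1 with 4) was described by the one with the highest mean over all arrays.

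RNA from whole embryos was hybridised to single-colour expression arrays, 1 array per sample, in 4 groups. The hsp-otd line 5A (n = 4) carries the fly gene oc, also called orthodenticle or otd,, driven by a heat shock promoter. The other line, hsp-Otx2 (n = 4), carries human Otx2 in the same kind of construct. Both controls were Oregon-R wild type, either heat-shocked (n = 3) or untreated (n = 5). Embryos of the 3 heat-shocked groups were collected for 12 h, aged for 4 h, held at 37 °C for 25 min and returned to 25 °C for 25 min. All 4 groups were at stages 10 to 17, and the labels give no collection, ageing or heat shock time for untreated wild type. A heat shock promoter is active in nearly all cells of the embryo, so the transgenes were not limited to the head, and each construct is represented by 1 line.

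The head gap genes oc, ems and btd are switched on in overlapping bands at the front of the early embryo, and each band gives rise to particular head segments and parts of the brain. In later embryos the same genes, together with tll, slp1 and slp2 and homeobox genes such as Rx, hbn, scro and Lim1, remain active in smaller groups of cells, mostly in the developing brain and head. The protein of oc is a homeodomain factor required for the front part of the brain. Its vertebrate relative Otx2 is required for the forebrain and midbrain, and the series sets what the fly and the human gene do in the same embryo side by side.

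Values are intensities after quantile normalization across the 16 arrays, so they are on an arbitrary linear scale. Values under 20, which include negative ones, were raised to 20 before log2 values were taken, and levels are geometric means of the raised values. A difference passed the test at an adjusted p below 0.05, from limma with Benjamini-Hochberg adjustment over all 12301 probe sets tested. The words higher and lower without a qualifier refer to differences that passed. The labels do not say that replicates of a group came from separate collections, so p-values measure the spread between these arrays, which may be technical.

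Several facts of the arrays bear on all that follows. The 7 tested heat shock genes had a summed level of 8997 to 10880 in untreated wild type and of 89760 to 123300 in the heat-shocked groups, as their labels say. It was 117600 to 120000 in heat-shocked wild type, 89760 to 108900 in hsp-otd and 94090 to 123300 in hsp-Otx2. Hsp83 (-0.52) and Hsp23 (-0.57) were lower in hsp-otd than in heat-shocked wild type, where 13.6% of all probe sets were lower. The deposited arrays had means of 786 to 998 in hsp-otd, 609 to 1016 in hsp-Otx2, 460 to 650 in heat-shocked wild type and 599 to 999 in untreated wild type. The arrays of hsp-otd were thus brighter than those of heat-shocked wild type before normalization. The 3 cuticle markers had a summed level of 24220 to 26440 in untreated wild type and of 3255 to 6342 in the 3 heat-shocked groups. The cuticle markers also differed among the heat-shocked groups. Against heat-shocked wild type, Cpr65Ea was higher in hsp-otd (log2 difference 2.73) and in hsp-Otx2 (0.95). TwdlW was at least 11.7-fold and 15.2-fold higher, while Ccp84Ag was lower (-0.72 and -0.64). Whether age differed between these groups was not tested. In comparisons with untreated wild type, age and heat shock cannot be told apart, nor can genotype where a line is compared.

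oc, the gene of the transgene itself, was highest in hsp-otd. Its normalized intensity was 6448, 6246, 6213 and 6385 in the 4 hsp-otd arrays. In the hsp-Otx2 arrays it was 127, 105, 121 and 96.6. In heat-shocked wild type it was 235, -16.5 and 76.7, and in untreated wild type it was above the floor in 1 of 5 arrays, at 21.2. The hsp-otd arrays lay far above all 12 others. The hsp-Otx2 arrays lay above all untreated ones and inside the range of heat-shocked wild type. The probe set does not separate the transgene from the fly's own transcript.

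Against heat-shocked wild type, oc was higher in hsp-otd by 6.47 on the log2 scale (SE 0.54, limma adjusted p = 4.29e-07), a fold of 88.9. That size depends on the control arrays and the floor, since the log2 difference was 7.34 without heat-shocked wild-type replicate 1 and 5.56 without replicate 2, the array under the floor. Against hsp-Otx2 the difference was 5.82 (SE 0.50, limma adjusted p = 1.67e-07). Between hsp-Otx2 and heat-shocked wild type it was 0.65 (95% interval -0.49 to 1.79, limma adjusted p = 0.373), and it was 1.51 without heat-shocked wild-type replicate 1 (limma adjusted p = 0.0101) and -0.26 without replicate 2. oc was higher in hsp-Otx2 than in untreated wild type by 2.47 (SE 0.47, limma adjusted p = 0.000466), a size that depends on the floor. oc also passed between heat-shocked and untreated wild type, with a log2 difference of 1.81 (SE 0.52, limma adjusted p = 0.018). That call was lost without heat-shocked replicate 1 (0.95, limma adjusted p = 0.108) or replicate 3 (1.76, limma adjusted p = 0.0531).

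**Figure D1:**
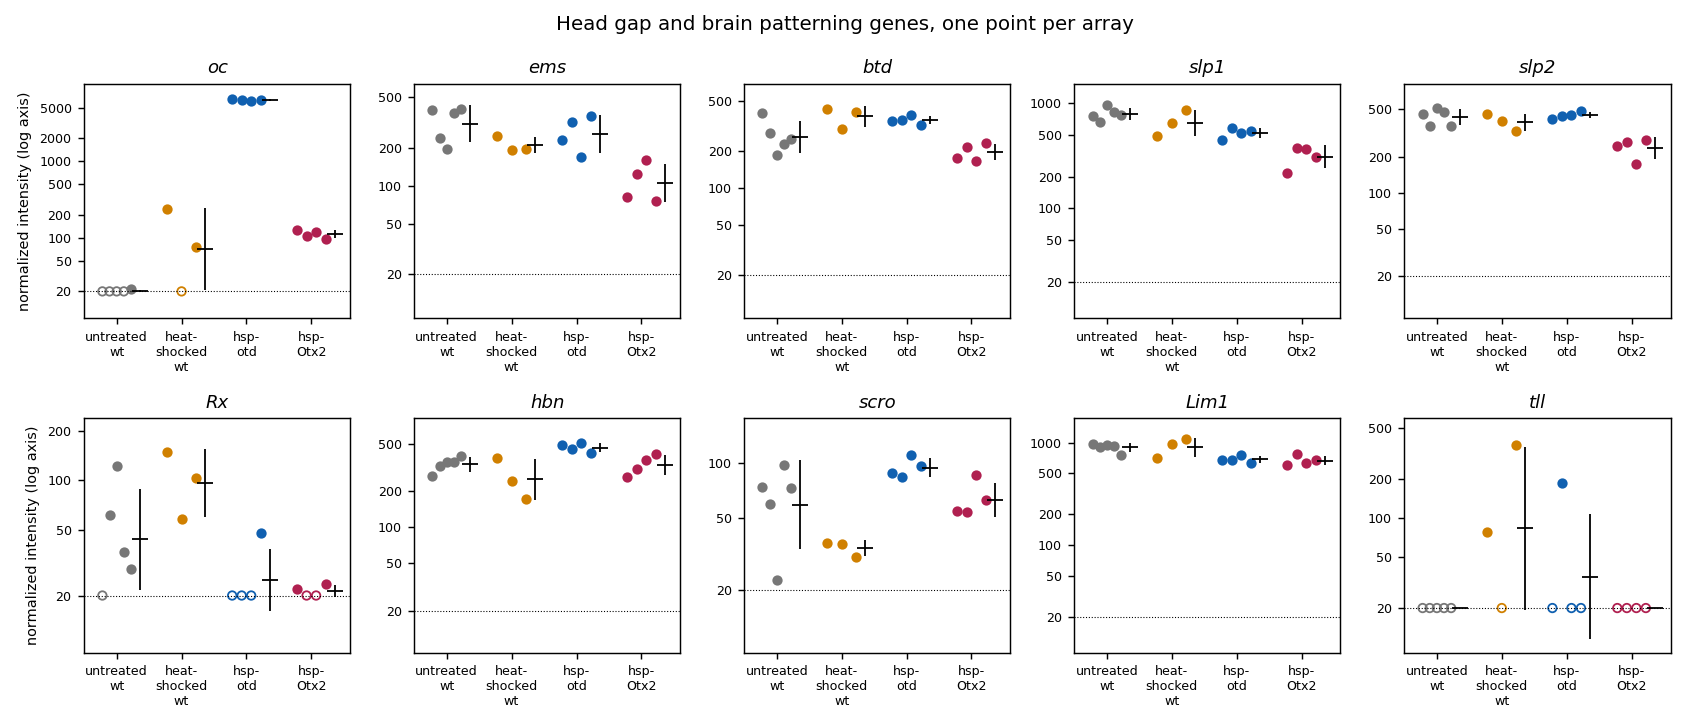
Normalized intensity (log axis) of the 10 genes in each of the 16 arrays, by group, with values at or under the floor of 20 drawn as open points on the dotted line. Crosses with bars are geometric means with 1 SD of the log2 values. oc is at 6213 to 6448 in hsp-otd and at most 235 elsewhere, and ems, slp1 and slp2 have their lowest 4 values in hsp-Otx2.

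The head gap gene ems, a homeobox gene needed for the middle and rear parts of the brain, was lowest in hsp-Otx2. Its intensity there was 81.1, 124, 159 and 75.8. It was 231, 317, 168 and 357 in hsp-otd, and 248, 192 and 194 in heat-shocked wild type. In untreated wild type it ran from 196 to 402, with a median of 374. Every hsp-Otx2 array lay below every other array, while hsp-otd overlapped both controls.

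ems was 2.45-fold lower in hsp-Otx2 than in hsp-otd (log2 difference 1.29, SE 0.34, limma adjusted p = 0.00746). It was also lower in hsp-Otx2 than in untreated wild type (log2 difference -1.56, SE 0.32, limma adjusted p = 0.000844). Against heat-shocked wild type the log2 difference was -0.998 (SE 0.36, limma adjusted p = 0.0411), the weakest of these calls. It was kept only without hsp-Otx2 replicate 2 or 3 among 7 fits that left out 1 array, and was lost in 5 of 9 other settings, with adjusted p-values from 0.0233 to 0.512 over the 16. Between hsp-otd and heat-shocked wild type ems differed by 0.30 (95% interval -0.48 to 1.07, limma adjusted p = 0.574).

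btd, a zinc finger gene of the Sp family that acts in the head segments next to those of ems, followed a similar course. Its intensity was 176, 212, 166 and 230 in hsp-Otx2. It was 349, 351, 391 and 324 in hsp-otd and 433, 300 and 413 in heat-shocked wild type. The hsp-Otx2 arrays lay below all arrays of both these groups. They overlapped untreated wild type, which ran from 183 to 399 with a median of 249.

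btd was lower in hsp-Otx2 than in heat-shocked wild type by 0.96 on the log2 scale (log2 difference -0.96, SE 0.25, limma adjusted p = 0.0071), a fold of 1.94. It was higher in hsp-otd than in hsp-Otx2 by 0.86 (SE 0.24, limma adjusted p = 0.00986). Between hsp-otd and heat-shocked wild type it differed by -0.10 (95% interval -0.63 to 0.44, limma adjusted p = 0.81). Neither line passed against untreated wild type, with log2 differences of 0.46 in hsp-otd (limma adjusted p = 0.14) and -0.41 in hsp-Otx2 (limma adjusted p = 0.163).

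slp1 and slp2 are neighbouring fork head genes with no other gene between them, and they act together in segmentation, in the head and later in the nervous system. slp1 had intensities of 215, 374, 364 and 311 in hsp-Otx2 and of 444, 578, 517 and 544 in hsp-otd. It had 489, 654 and 871 in heat-shocked wild type, and 662 to 965 in untreated wild type with a median of 782. The highest hsp-Otx2 value was under the lowest value of every other group. The hsp-otd arrays lay under all untreated ones and overlapped heat-shocked wild type.

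slp1 was lower in hsp-Otx2 by 1.08 on the log2 scale against heat-shocked wild type (log2 difference -1.08, SE 0.21, limma adjusted p = 0.000826) and by 1.36 against untreated wild type (log2 difference -1.36, SE 0.19, limma adjusted p = 1.73e-05). It was higher in hsp-otd than in hsp-Otx2 by 0.75 (SE 0.20, limma adjusted p = 0.00803). In hsp-otd it was lower than in untreated wild type (log2 difference -0.61, SE 0.19, limma adjusted p = 0.0209), a call lost without hsp-otd replicate 1 (-0.54, limma adjusted p = 0.0689) or untreated replicate 3 (-0.54, limma adjusted p = 0.0505). Against heat-shocked wild type slp1 in hsp-otd differed by -0.33 (95% interval -0.79 to 0.12, limma adjusted p = 0.255).

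slp2 had intensities of 246, 264, 174 and 275 in hsp-Otx2, under all 12 other arrays. It had 415, 438, 444 and 477 in hsp-otd and 450, 392 and 327 in heat-shocked wild type. In untreated wild type it ran from 359 to 508, with a median of 456. The hsp-otd arrays fell inside the untreated range.

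slp2 was lower in hsp-Otx2 than in heat-shocked wild type by 0.71 (log2 difference -0.71, SE 0.20, limma adjusted p = 0.01) and than in untreated wild type by 0.86 (log2 difference -0.86, SE 0.18, limma adjusted p = 0.000782). It was higher in hsp-otd than in hsp-Otx2 by 0.91 (SE 0.18, limma adjusted p = 0.00112). Between hsp-otd and untreated wild type it differed by 0.05 (95% interval -0.32 to 0.42, limma adjusted p = 0.86).

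The gap between both genes was smaller in hsp-otd than in untreated wild type. The log2 value of slp1 minus that of slp2 in the same array is not a ratio of the transcripts, since different probes have different brightness, but it can be compared between groups. It was 0.10, 0.40, 0.22 and 0.19 in the hsp-otd arrays, and 0.74, 0.87, 0.93, 0.79 and 1.12 in the untreated ones. The means were 0.23 ± 0.13 (SD, n = 4) and 0.89 ± 0.15 (SD, n = 5), and the groups did not overlap. The difference of -0.66 had p = 0.00794 in a two-sided exact permutation test, the smallest that 4 against 5 arrays allow, and 0.0476 after adjustment over the 6 comparisons of this kind. This test was chosen after the values had been seen. With any 1 of these 9 arrays left out the difference stayed between -0.72 and -0.61, and the adjusted exact p was 0.107 or 0.171, the smallest that the remaining arrays allow. In the other 5 comparisons the adjusted exact p was between 0.262 and 0.657, and the difference ran from 0.12 to 1.41 within heat-shocked wild type and from -0.19 to 1.07 within hsp-Otx2.

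**Figure D2:**
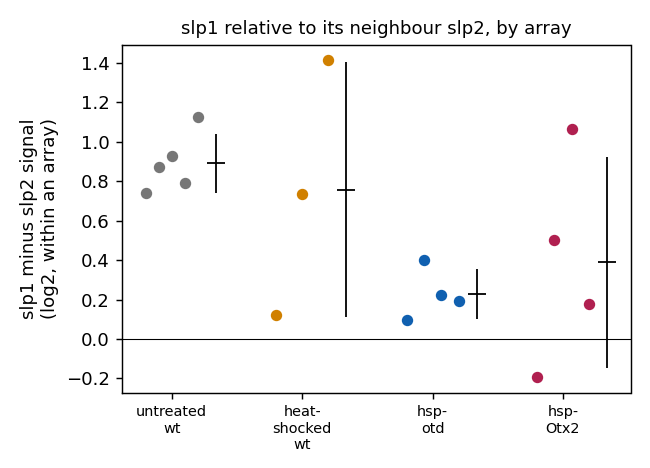
Log2 value of slp1 minus that of slp2 in each array, by group, with 1 point per array. Bars beside the points are group means with 1 SD. The gap between the genes is narrow in the 4 hsp-otd arrays (0.10 to 0.40) and wide in the 5 untreated ones (0.74 to 1.12).

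tll, a nuclear receptor gene that acts at both ends of the early embryo and later in the front part of the brain, was mostly not measurable. It was above the floor in 3 of 16 arrays, the fewest that the filter admits. These were 2 of 3 heat-shocked wild-type arrays, at 77.7 and 371, and 1 of 4 hsp-otd arrays, at 188. All 5 untreated and all 4 hsp-Otx2 arrays lay below the floor. tll passed in none of the comparisons, but without heat-shocked replicate 2 it passed against heat-shocked wild type in hsp-otd (log2 difference -2.28, limma adjusted p = 0.0433) and in hsp-Otx2 (-3.09, limma adjusted p = 0.00642), and between the wild types (3.09, limma adjusted p = 0.00884).

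Among the homeobox genes of the brain, Rx was dim. Rx, a paired-like gene whose vertebrate relatives are needed for the eye, had intensities of 148, 58.2 and 103 in heat-shocked wild type. It was above the floor in 1 of 4 hsp-otd arrays, at 47.6, and in 2 of 4 hsp-Otx2 arrays, at 22 and 23.4. In untreated wild type it ran from 6.59 to 123, with a median of 36.6. The arrays of both lines lay under all heat-shocked wild-type arrays and overlapped untreated wild type.

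Against heat-shocked wild type, Rx was lower in hsp-otd (log2 difference -1.95, SE 0.54, limma adjusted p = 0.0135) and in hsp-Otx2 (log2 difference -2.17, SE 0.54, limma adjusted p = 0.00491). Both comparisons use the same 3 control arrays, and both sizes depend on the floor. The hsp-otd call was lost without control replicate 1 (-1.64, limma adjusted p = 0.0533). Neither passed against untreated wild type, with differences of -0.82 (limma adjusted p = 0.222) and -1.04 (limma adjusted p = 0.0971). The lines differed from each other by 0.22 (95% interval -0.85 to 1.29, limma adjusted p = 0.816).

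hbn, a paired-like homeobox gene close to Rx on the chromosome (2 protein-coding genes lie between them), was highest in hsp-otd. Its intensity there was 491, 448, 508 and 416. It was 263, 310, 363 and 409 in hsp-Otx2 and 382, 242 and 173 in heat-shocked wild type. In untreated wild type it ran from 269 to 398, with a median of 351. The lowest hsp-otd value, 416, was above all 12 other arrays, the next being 409.

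hbn was higher in hsp-otd than in heat-shocked wild type by 0.88 (SE 0.24, limma adjusted p = 0.0129), a fold of 1.84. Without control replicate 3 the difference was 0.61 (limma adjusted p = 0.0712). Against untreated wild type it was 0.46 (95% interval 0.01 to 0.92, limma adjusted p = 0.117), and against hsp-Otx2 it was 0.49 (0.01 to 0.96, limma adjusted p = 0.125). Both missed the threshold although the arrays did not overlap. The former passed when the fit held only the groups compared (limma adjusted p = 0.0425). The latter passed with array weights, with such a fit and with 1 variance factor per group (limma adjusted p = 0.0292, 0.0269 and 0.0232), and its range over the alternatives that left out 1 array was 0.37 to 0.59. In hsp-Otx2 hbn differed from heat-shocked wild type by 0.39 (limma adjusted p = 0.222), and by 0.69 without control replicate 1 (limma adjusted p = 0.0269). The other 2 probe sets of hbn exceeded the floor in 0 and 1 of 16 arrays and could not be set beside this one.

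scro is an NK-2 class homeobox gene of the brain and optic lobes. Its intensity was 88.3, 83.9, 111 and 97.1 in hsp-otd. In hsp-Otx2 it was 54.9, 53.7, 85.8 and 62.8, and in heat-shocked wild type 36.2, 35.9 and 30.5. In untreated wild type it ran from 22.6 to 97.9, with a median of 73.5. Both lines lay above all heat-shocked wild-type arrays and inside or close to the wide untreated range.

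scro was higher in hsp-otd than in heat-shocked wild type by 1.47 (SE 0.45, limma adjusted p = 0.0219), a fold of 2.77. The call was lost without control replicate 3 (1.39, limma adjusted p = 0.0638) and without hsp-otd replicate 3 (1.39, limma adjusted p = 0.0524), and with the replicate number as a block (1.38, limma adjusted p = 0.0635). In hsp-Otx2 the difference was 0.89 (95% interval -0.06 to 1.84, limma adjusted p = 0.135). The difference from untreated wild type was 0.68 in hsp-otd (limma adjusted p = 0.221) and 0.10 in hsp-Otx2 (limma adjusted p = 0.876).

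Lim1 is a LIM-homeobox gene active in the brain and nerve cord. The described probe set, CG10760_at, had intensities of 679, 679, 757 and 634 in hsp-otd and of 605, 769, 630 and 672 in hsp-Otx2. It had 712, 958 and 1074 in heat-shocked wild type and 764 to 968 in untreated wild type. The hsp-otd arrays lay under all untreated ones, and 1 of 3 heat-shocked wild-type arrays lay inside the range of both lines.

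That probe set was lower than in heat-shocked wild type by 0.39 in hsp-otd (log2 difference -0.39, SE 0.14, limma adjusted p = 0.0426) and by 0.44 in hsp-Otx2 (log2 difference -0.44, SE 0.14, limma adjusted p = 0.021). The differences from untreated wild type were -0.38 (limma adjusted p = 0.0257) and -0.43 (limma adjusted p = 0.01). The call of hsp-otd against heat-shocked wild type was kept only without hsp-otd replicate 3 or heat-shocked replicate 1 among 7 fits that left out 1 array, and was lost in 6 of 9 other settings. That of hsp-Otx2 was lost without hsp-Otx2 replicate 1 or 3 or heat-shocked replicate 2 or 3 (-0.41 to -0.31). Against untreated wild type the hsp-otd call was lost without hsp-otd replicate 1, 2 or 4 or untreated replicate 1 (-0.38 to -0.35). Median scaling ended all 4 calls of CG10760_at, with differences of -0.27 and -0.26 from heat-shocked wild type and of -0.30 and -0.29 from untreated wild type, and so did leaving out normalization. When the fit held only the groups compared, both calls against heat-shocked wild type were lost (limma adjusted p = 0.0841 and 0.0657). The other tested probe sets of Lim1 passed in none of the 6 comparisons. The one above the floor in all 16 arrays, BCDNA-GH04929-CDS-2_at, differed from heat-shocked wild type by -0.08 in hsp-otd (95% interval -0.67 to 0.52, limma adjusted p = 0.863) and by 0.01 in hsp-Otx2 (95% interval -0.59 to 0.60, limma adjusted p = 1). LIM1_at, above the floor in 9 of 16 arrays, differed by 0.02 in hsp-otd (95% interval -2.01 to 2.05). In hsp-Otx2 it differed by 1.11 (95% interval -0.92 to 3.14, limma adjusted p = 0.394), opposite in sign to CG10760_at. All these intervals contain the differences of CG10760_at, and the difference between probe sets was not tested. The name of the brightest rests on an older CG number that the RefSeq table lists for Lim1.

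**Figure D3:**
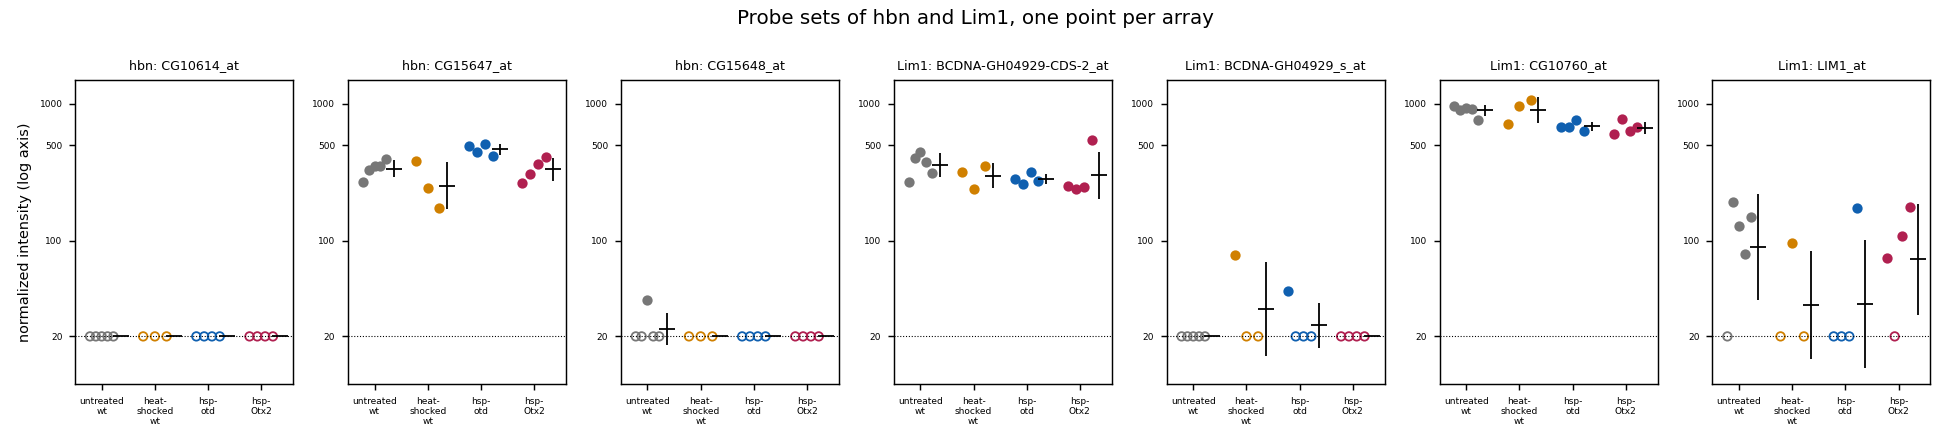
Normalized intensity (log axis) of the 3 probe sets of hbn and the 4 of Lim1 in each array, with open points at or under the floor of 20 and crosses with bars for geometric means with 1 SD of the log2 values. For hbn 1 probe set carries the signal, and for Lim1 CG10760_at and BCDNA-GH04929-CDS-2_at are above the floor in all 16 arrays.

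The 10 genes were then counted together, comparison by comparison. oc is the gene carried by the hsp-otd construct, so its calls in that line were set by the design. In hsp-otd against heat-shocked wild type 3 were higher (oc, hbn, scro) and 2 lower (Rx, Lim1), where 29.3% of all probe sets passed, 15.8% higher and 13.6% lower. In hsp-Otx2 against the same control arrays none was higher and 6 were lower (ems, btd, slp1, slp2, Rx, Lim1), where 37.2% of all probe sets passed, 17.5% higher and 19.7% lower. The median log2 difference over the 10 genes was 0.05 in hsp-otd and -0.84 in hsp-Otx2, and without oc it was -0.10 and -0.96. Over all probe sets it was 0.00 and -0.13.

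Directly between the lines, 5 of 10 were higher in hsp-otd (the transgene oc, and ems, btd, slp1 and slp2) and none was lower. Of all probe sets 29.5% passed, 15.7% higher and 13.8% lower. The median difference was 0.75 over the genes other than oc and 0.03 over all probe sets. These 5 calls held in each of the 8 fits that left out 1 array. Without normalization of the arrays, slp1 missed the threshold (1.02, limma adjusted p = 0.0531) and the other 4 passed.

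Normalization decided several of the calls against heat-shocked wild type. Without it oc, hbn and scro passed in hsp-otd and Rx and Lim1 did not. The median over all probe sets in hsp-otd was then 0.68, and 92.8% of the probe sets that passed were higher. That upward shift favours higher calls, so this setting is no check of hbn and scro. Relative to 0.68, Rx was at -2.04 and Lim1 at -0.27 in hsp-otd. No gene passed in hsp-Otx2, and the median over all probe sets was itself 0.29. Relative to that median, ems was at -0.90, btd at -0.83, slp1 at -0.87, slp2 at -0.57 and Rx at -1.72. Lim1 was at -0.16 relative to it, and at 0.13 before the median was taken off, the reverse of its sign after normalization. Against untreated wild type, slp1 (-0.28) and Lim1 (-0.03) in hsp-otd and slp2 (-0.84) and Lim1 (-0.31) in hsp-Otx2 no longer passed without normalization.

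Only oc passed between heat-shocked and untreated wild type, 1 of 10 genes higher and none lower, where 22.5% of all probe sets passed, 10.3% higher and 12.2% lower. Against untreated wild type, hsp-otd had 1 gene higher (oc, its transgene) and 2 lower (slp1, Lim1), where 29.6% of probe sets passed, 15.7% higher and 13.9% lower. hsp-Otx2 had 1 higher (oc) and 4 lower (ems, slp1, slp2, Lim1), where 40% passed, 18.5% higher and 21.4% lower. The 4 arrays of hsp-Otx2 lay below all 12 others for 3 of 10 genes (ems, slp1, slp2), against 6.55% of all probe sets. Those of hsp-otd lay above all others for 2 of 10 (the transgene oc, and hbn), against 4.67%. For 0 of 10 genes did hsp-Otx2 lie above all others (10.4% of probe sets), hsp-otd below (2.09%), heat-shocked wild type above (3.37%) or below (2.63%), or untreated wild type above (4.19%) or below (2.76%).

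**Figure D4:**
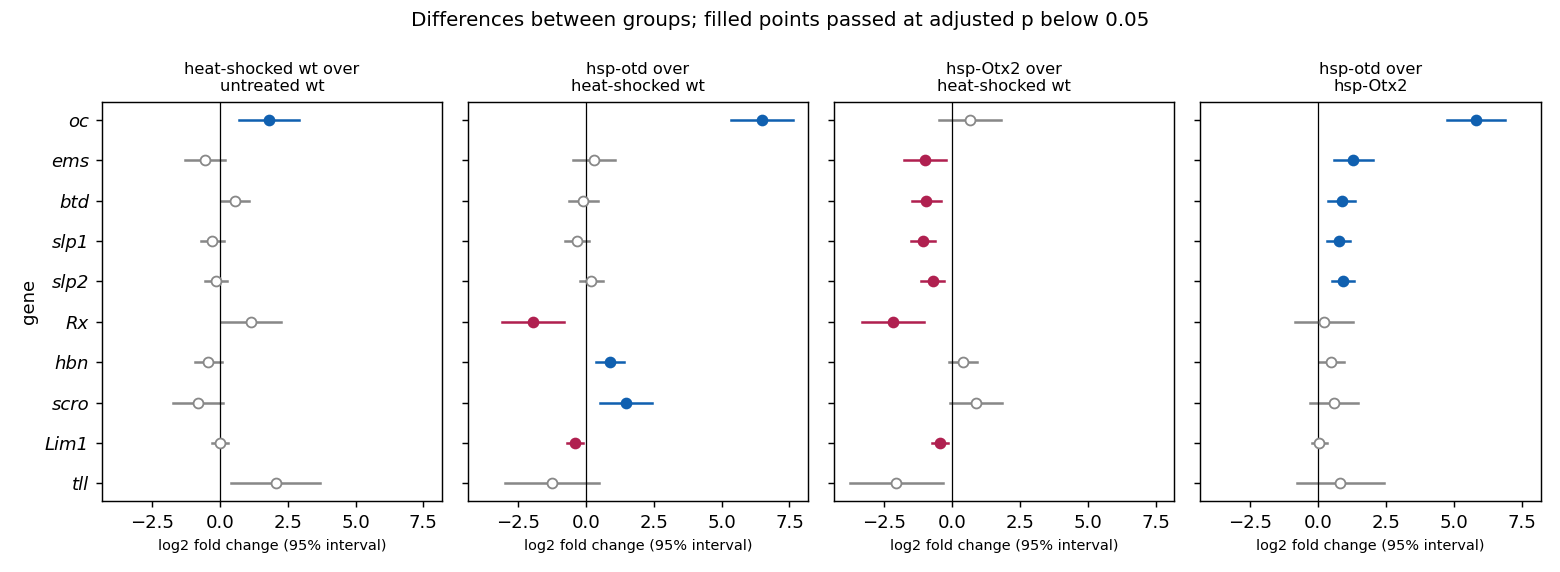
Log2 fold change with its 95% interval for the 10 genes in 4 comparisons, from limma. Filled points passed at an adjusted p below 0.05, blue for higher and red for lower in the group named first. ems, btd, slp1 and slp2 are filled on the low side in hsp-Otx2 over heat-shocked wild type and on the high side in hsp-otd over hsp-Otx2.

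Some lists of cell type markers also differed between hsp-Otx2 and heat-shocked wild type, and others did not. The 5 muscle markers summed to 41000 to 45090 in hsp-Otx2 and 41630 to 45590 in heat-shocked wild type. The 5 haemocyte markers summed to 12620 to 13500 and 12610 to 13240. Of these, Mef2 (-0.94), srp (-0.89) and Pxn (-0.49) were lower in hsp-Otx2. The 4 early and maternal markers summed to 4830 to 8013 and 7356 to 10280, with osk higher and ftz and eve lower. The 5 neuroblast markers had a summed level of 1596 to 2600 in hsp-Otx2 and, overlapping it, 2524 to 2901 in heat-shocked wild type. It was 3749 to 4775 in hsp-otd and 3558 to 4810 in untreated wild type. Of the 5, 3 (dpn, wor and mira) were higher in hsp-otd than in hsp-Otx2, where 15.7% of all probe sets were higher. Only mira was higher in hsp-otd than in heat-shocked wild type (1.995, limma adjusted p = 3.77e-05). Against heat-shocked wild type, only wor among these 5 was lower in hsp-Otx2 (-0.76, limma adjusted p = 0.00708). The marker ase differed the other way without passing (2.72, limma adjusted p = 0.0561). The 4 measured glial markers summed to 2300 to 2504 in hsp-Otx2 and 2753 to 3662 in heat-shocked wild type. They summed to 4323 to 4674 in hsp-otd and 3129 to 4051 in untreated wild type. The 3 midgut markers summed to 11950 to 12760 in hsp-Otx2, against 2376 to 3396, 1715 to 1988 and 1050 to 1764 in the same order of other groups. They did not move together: the digestive enzyme genes Jon99Ciii (3.49) and alphaTry (1.77) were higher in hsp-Otx2 than in heat-shocked wild type, while the GATA factor gene GATAe was lower (log2 difference -1.92, limma adjusted p = 8.4e-05). Among neuronal markers futsch and Appl were at the floor in all arrays, and none of the 3 tested passed in either line against heat-shocked wild type. Neuronal markers summed to 655 to 976 in hsp-Otx2, 543 to 1291 in heat-shocked wild type, 1214 to 1362 in hsp-otd and 898 to 2054 in untreated wild type, so hsp-Otx2 lay inside the range of its heat-shocked control. The neuronal gene elav was higher in hsp-otd than in hsp-Otx2 (1.01, limma adjusted p = 0.0119) and lower in hsp-Otx2 than in untreated wild type (-1.03, limma adjusted p = 0.00551). The part of these shifts in the results for ems, btd, slp1 and slp2 was not tested. In RNA of whole embryos, fewer cells that express a gene and less RNA of it per cell cannot be told apart.

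A wider list of 38 other head and brain patterning genes gave the setting. Of these 32 were tested, and kn, gt, lab, bsh, erm and Dll were too dim. In hsp-Otx2 against heat-shocked wild type 12 were lower and 1 higher, with a median of -0.68, where 19.7% of all probe sets were lower and 17.5% higher and their median was -0.13. The lower ones with the smallest adjusted p were the Sox genes D (-1.23) and SoxN (-0.67), which act in neural progenitors, and the Pax gene eyg (-5.32, a size that depends on the floor). The gap gene hb was the one higher (0.87). In hsp-otd against the same arrays 1 was higher, the Iroquois gene mirr (1.06), and 3 were lower, SoxN (-0.72), eyg (-3.21) and bcd (-0.69), with a median of -0.12, where 15.8% of all probe sets were higher and 13.6% lower.

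Between the lines 6 of the 32 were higher in hsp-otd and 2 lower, with a median of 0.70, where 15.7% of all probe sets were higher and 13.8% lower and their median was 0.03. mirr (1.32), the TALE homeobox cofactor hth (0.85) and D (1.00) were among the higher ones and hb (-0.67) was lower. Between the wild types 3 were higher and 3 lower, including hth (2.42), SoxN (0.80) and hb (-0.97), where 10.3% of all probe sets were higher and 12.2% lower. Against untreated wild type, 5 were higher and 6 lower in hsp-otd, and 2 higher and 14 lower in hsp-Otx2, beside 15.7% and 13.9% of all probe sets in hsp-otd and 18.5% and 21.4% in hsp-Otx2.

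**Figure D5:**
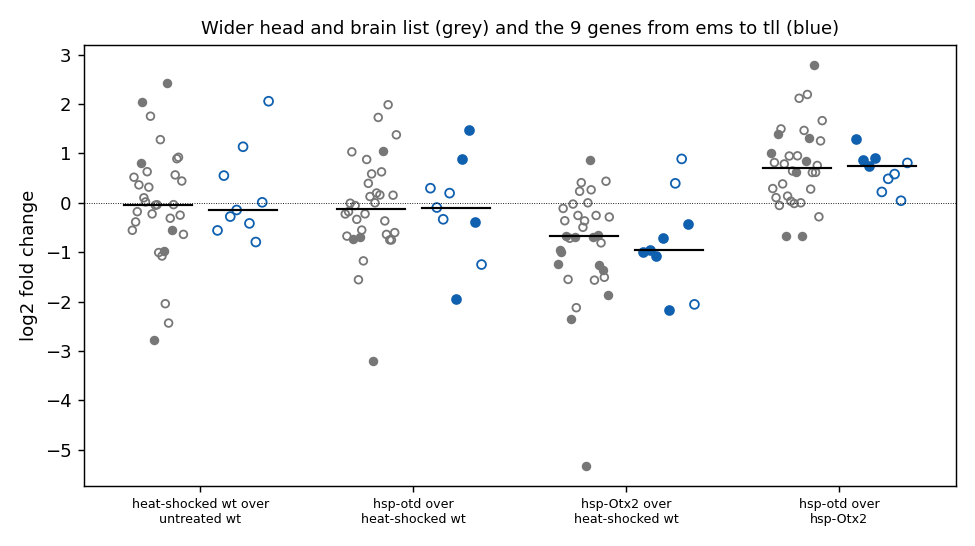
Log2 fold changes of the 32 tested genes of the wider head and brain list (grey) and of the 9 genes from ems to tll (blue) in 4 comparisons, with filled points for an adjusted p below 0.05 and bars at the medians. In hsp-Otx2 over heat-shocked wild type the medians are -0.68 and -0.96, and in hsp-otd over hsp-Otx2 they are 0.70 and 0.75.

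Relatives of the 10 genes by protein family were counted in the same way. These counts are not separate from those of the wider list, which also holds otp, al, ap, croc and fd59A. One of them, otp, is among the lower genes of both lists in hsp-Otx2 against heat-shocked wild type (-0.65). Of 17 tested paired-like and LIM homeobox genes, 5 were lower and none higher in hsp-Otx2 against heat-shocked wild type (median -0.65), where 19.7% of all probe sets were lower and 17.5% higher. Examples were tup (-3.70), which specifies motor neurons, and Vsx1 (-1.84), a gene of the visual system and brain. In hsp-otd against the same arrays 1 was lower, tup (-1.19), and none higher (median -0.34), where 13.6% of all probe sets were lower. Between the lines 4 were higher in hsp-otd, tup (2.51), gsb (2.98), Gsc (1.55) and Vsx1 (1.23), and none was lower, where 15.7% of all probe sets were higher. Several of these genes were at or under the floor in part of the hsp-Otx2 arrays, so their sizes depend on it.

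The 10 tested fork head relatives of slp1 and slp2 did not share their course. In hsp-Otx2 against heat-shocked wild type, FoxK was higher (1.16) and the visceral muscle gene bin lower (-0.92), with a median of -0.11 beside -0.13 over all probe sets. In hsp-otd fd96Cb was at least 13.9-fold higher, since all heat-shocked wild-type and hsp-Otx2 arrays were at or under the floor, and bin was lower (-0.84). Between the wild types, fd96Cb was at least 6.10-fold lower after heat shock.

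Likeness over the 16 arrays was measured as the root mean square difference between centred log2 values, with 3 genes named per described gene. The points share their arrays, so this is a description. For oc these were CG31121 (1.55), ptc (1.61) and CG7387 (1.65), where the median over all probe sets was 3.31. ptc, which encodes the Hedgehog receptor, was at or under the floor in the 12 other arrays and at 367 to 528 in hsp-otd, at least 21.5-fold higher. The named probe set of CG31121 was also at or under the floor outside hsp-otd and at least 25.3-fold higher there. Both passed the filter through the hsp-otd arrays alone and were picked for likeness to oc. That they were high only in hsp-otd follows from this choice. Another probe set of CG31121 differed in the opposite direction in hsp-otd against heat-shocked wild type (-1.44, limma adjusted p = 0.0118).

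The root mean square differences of the other genes' partners were smaller, as were those genes' own spreads over the arrays. For slp1 they were zetaCOP (0.22), brk (0.22) and Coq4 (0.24), against a median over all probe sets of 0.84. brk encodes a repressor of Dpp target genes. For slp2 they were spi (0.18), which encodes an EGF receptor ligand, CG13001 (0.19) and Lsm12a (0.19), against 0.75. For ems they were Dpck (0.37), Oatp58Dc (0.38) and Dpm1 (0.39), against 0.95, and for btd garz (0.25), hrg (0.25) and lin-28 (0.27), against 0.78.

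For Rx the closest were CG14011 (0.46), Dh44 (0.48) and CG12481 (0.48), against 1.17. For hbn they were gek (0.20), CG3436 (0.22) and Syx5 (0.22), against 0.75. For scro they were CG13895 (0.32), sds22 (0.32) and Cpsf100 (0.33), against 0.92, and for Lim1 Nurf-38 (0.10), Or7a (0.10) and Rab3GAP1 (0.11), against 0.68. tll passed in no comparison and was given no partners.

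Within groups the genes were measured with unequal precision. Over the genes with all arrays of a group above the floor, the median SD of the log2 values was 0.12 in hsp-otd (8 genes), 0.29 in hsp-Otx2 (8 genes), 0.30 in heat-shocked wild type (8 genes) and 0.23 in untreated wild type (7 genes). The highest SD was 0.82, for scro in untreated wild type, and the lowest was 0.03, for oc in hsp-otd.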

How the data were processed

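The deposited values are intensities, 1 per probe set and array. Their scaling and summary are not stated, and 18.3% to 24.6% of an array's values were negative. Groups and replicate numbers came from the titles. Identifier stems were matched to symbols, CG numbers and synonyms in a RefSeq gene table for Drosophila melanogaster, which gave 1 symbol to 13093 of 14070 probe sets. BTD and RX are also older names of another gene. The 32 control probe sets were left out. Linear intensity was quantile normalized, floored at 20 and put on the log2 scale. Models with 1 coefficient per group were fitted to all 16 arrays with limma 3.58.1 in R 4.3.3 (lmFit, eBayes with a trend), on the 12301 probe sets that exceeded the floor in 3 or more arrays. The flooring and fit, but not the normalization, were tested on simulated data in which only brighter probe sets were changed. The number of arrays limits the precision. Alternatives changed the normalization, floor, filter, weights, block and arrays. List genes named had the smallest adjusted p among those that passed, at most 4 per comparison. The genes, lists and tests were chosen with earlier results of these data known. The human Otx2 transcript was not analysed here.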

Additional observations from a re-analysis of the deposited data

Results flagged for a closer look

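With 28 groups of 4 or 5 arrays looked at, and about 1 in 20 flagged by chance, 3 arrays stood apart from the others of their group. oc in untreated replicate 5 was at 21.2 with the other 4 arrays at or under the floor of 20. Rx in hsp-otd replicate 4 was at 47.6 with the other 3 at or under the floor. tll in hsp-otd replicate 2 was at 188 with the other 3 at or under the floor. In each case the other values are all set to the floor, so the gap fills the whole range whatever its size.

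The response of 5 genes differed between the transgenic lines, by the limma test of hsp-otd against hsp-Otx2, which is the difference of their responses over the shared control. The log2 differences were 5.82 for oc, 1.29 for ems, 0.86 for btd, 0.75 for slp1 and 0.91 for slp2, with adjusted p-values of 1.67e-07, 0.00746, 0.00986, 0.00803 and 0.00112. oc is the gene of the hsp-otd construct. In this comparison 29.5% of all probe sets passed, 15.7% higher and 13.8% lower. Each of the 5 genes was higher in 4 of 4 hsp-otd arrays than in every hsp-Otx2 array, as was hbn, which did not pass. The 5 were picked for passing in these same arrays, so this separation adds no support. The share of all probe sets with such a separation is not given here.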

How the results depend on the processing

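Of 1223 values recomputed under other settings or with 1 array left out, 1091 were classed as unchanged. For a difference, that meant the same direction and side of the threshold. For a count of genes or probe sets passing, it meant only a count of similar size. The cause of the changes was not tested. Without normalization the genes passing were 0 between wild types, 3 in hsp-otd and 0 in hsp-Otx2 against heat-shocked wild type, and 1 and 3 against untreated wild type, and probe sets passing were 1289, 2378 (hsp-Otx2 against heat-shocked), 1837 (between lines), 1951 and 2683 (hsp-otd and hsp-Otx2 against untreated), in place of 2770, 4577, 3630, 3641 and 4917. The share of passing probe sets that were higher then went from 45.8% to 14.7% between wild types, 53.8% to 92.8% in hsp-otd and 47.1% to 86.4% in hsp-Otx2 against heat-shocked wild type, 53.3% to 71% between lines, and 53% to 76.1% and 46.4% to 58.4% against untreated. Median scaling gave 64.5% and 58.1% against heat-shocked wild type. Between wild types no gene passed with a floor of 50, array weights or only the compared groups, and 1600 probe sets passed with 1 variance factor per group and 1535 with only the compared groups.

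Signs turned without normalization for Lim1 between wild types (-0.44), for btd (0.62), slp1 (0.45) and Lim1 (0.41) in hsp-otd and Lim1 (0.13) in hsp-Otx2 against heat-shocked wild type, and for ems in hsp-otd against untreated (0.023). Relative to the median over all probe sets of the same fit, btd (-0.058), slp1 (-0.23) and Lim1 (-0.27) in hsp-otd against heat-shocked wild type stayed negative. Signs turned with median scaling for Lim1 between wild types (-0.026) and between lines (-0.012) and for hbn in hsp-Otx2 against untreated (0.026). With other floors Rx between lines went to -0.037 (10) and 0 (50), and scro in hsp-Otx2 against untreated to -0.13 (50) and, with array weights, -0.057. None of these turned values passed.

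With 1 array left out, genes passing ranged from 0 to 3 between wild types, 2 to 5 in hsp-otd and 4 to 7 in hsp-Otx2 against heat-shocked wild type, 5 to 5 between lines, and 1 to 3 and 5 to 6 against untreated. The count between wild types was 2 without untreated replicate 1 or heat-shocked replicate 2, 3 without untreated replicate 3 and 0 without heat-shocked replicate 3. It was 2 in hsp-otd against heat-shocked wild type without heat-shocked replicate 3, and 1 against untreated without hsp-otd replicate 1. Calls gained between wild types were btd (0.71) without untreated replicate 1, Rx (1.51) and scro (-1.14) without untreated replicate 3 and hbn (-0.72) without heat-shocked replicate 1. Without untreated replicate 1, btd in hsp-otd (0.61) and Rx in hsp-Otx2 (-1.32) passed against untreated. Log2 differences that turned ranged from -0.12 to 0.18 for Lim1 between wild types, -0.26 to 0.003 for btd in hsp-otd and -0.26 to 1.51 for oc in hsp-Otx2 against heat-shocked wild type. Between lines they ranged from -0.006 to 0.11 for Lim1 and -0.092 to 0.325 for Rx, and against untreated from -0.012 to 0.113 for slp2 in hsp-otd, -0.124 to 0.089 for hbn and -0.25 to 0.28 for scro in hsp-Otx2. The slp1 minus slp2 difference between hsp-otd and untreated ranged from -0.72 to -0.61, and its adjusted exact p rose to 0.107 or 0.171, the smallest those numbers of arrays allow. These alternatives for it were chosen after the data were seen. tll fell under the filter in some fits.

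Same-numbered arrays had deviations correlated from -0.071 to 0.115, so the numbers do not pair them. With the replicate number as a block, 3 genes in place of 5 passed in hsp-otd (scro and Lim1 lost) and 5 in place of 6 in hsp-Otx2 (ems lost) against heat-shocked wild type, and signs turned for Lim1 between wild types (-0.061), slp2 in hsp-otd against untreated (-0.012) and hbn in hsp-Otx2 against untreated (0.037).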
